A study of Mus musculus with 6 samples.

Results

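The genes described here encode the enzymes, membrane proteins and proton pump of the lysosome, the acidic compartment in which cells break down proteins, glycans and lipids. A set of 53 mouse genes was chosen by symbol and matched to Ensembl identifiers through GENCODE M21 on the build GRCm38. The choice was made with earlier results of these data known, so the counts of called genes describe the set and are not independent support. All 53 were among the 54532 genes in the deposited count tables and among the 15751 genes with enough counts to be tested. By role they were 12 peptidases, 13 glycan hydrolases, 10 genes of lipid breakdown and export, 5 membrane proteins, 2 transcription factors and 11 subunits of the proton pump.

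Epididymal fat, the visceral depot beside the epididymis, was taken from male C57BL/6J mice and sequenced as bulk RNA, with 3 libraries from mice on a normal diet (ND, 4.5% fat) and 3 from mice on a high-fat diet (HFD, 60% fat). Both diets began at 4 weeks of age and ran for 16 weeks, and neither group received a drug, so that diet was the difference the labels give between them. The labels do not say whether each library came from 1 mouse, and the p-values measure the spread between these libraries. The comparison of HFD with ND addressed which fat depot transcripts differ in diet-induced obesity.

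Lysosomal hydrolases are made as precursors, carried to the lysosome and activated at low pH, which the vacuolar H+-ATPase maintains by pumping protons across the lysosomal membrane. In adipose tissue, macrophages that take up lipid from adipocytes degrade it in lysosomes. The transcription factors TFEB and TFE3 bind a short promoter element, called the CLEAR element, that many lysosomal genes share.

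Levels are given as CPM, the count scaled to the library size after TMM adjustment, for comparing 1 gene between libraries. FPKM, which also divides by transcript length, is used for comparing genes with each other. A gene was called higher or lower on HFD when its adjusted p was under 0.05 in edgeR's quasi-likelihood test, with Benjamini-Hochberg adjustment over all 15751 genes tested. Every adjusted p below is from that test unless another is named, values per library are given in the order of the replicate numbers, and a pair of values in brackets is the log2 fold change and its adjusted p. The libraries held 16996896 to 18859320 counts, and a gene with 3 counts had 0.150 to 0.181 CPM. The third ND library stood apart from the rest, with 273 genes above 50 counts and more than 10 times the level of any other library, none of them among the 53. Summed epithelial markers (7 genes) were 292 CPM in it and 11.01 and 12.5 CPM in the other ND libraries, with Cldn2 at 0 everywhere else. Adipocyte markers (11 genes, none at 0) summed to at least 12663 CPM in every library, so the markers of the labelled tissue were present.

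Transcripts of the lysosomal set were more abundant on HFD. Of the 53 genes, 32 were called higher and none was called lower, while across all genes tested 9.85% were called higher and 6.04% lower. At an unadjusted p under 0.05, 41 of the 53 were higher and 2 lower, beside 18.7% and 15.3% of all genes tested. With DESeq2 38 were called higher and 1 lower (Ctsc), beside 10.7% and 8.42% of all genes by that test. The median log2 fold change was 0.87 over the 53 genes and 0.01 over all genes tested. In 42 of the 53 genes every HFD library lay above every ND library, a pattern found in 21.7% of all genes tested. The HFD values lay wholly below the ND values in 2 genes, Ctsc and Ctso, as they did in 19.1% of all genes, and the groups overlapped in the other 9. Among the called genes the log2 fold change ranged from 0.60 to 3.72, and 23 of them were at least 2-fold and 9 at least 4-fold higher on HFD.

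**Figure D1:**
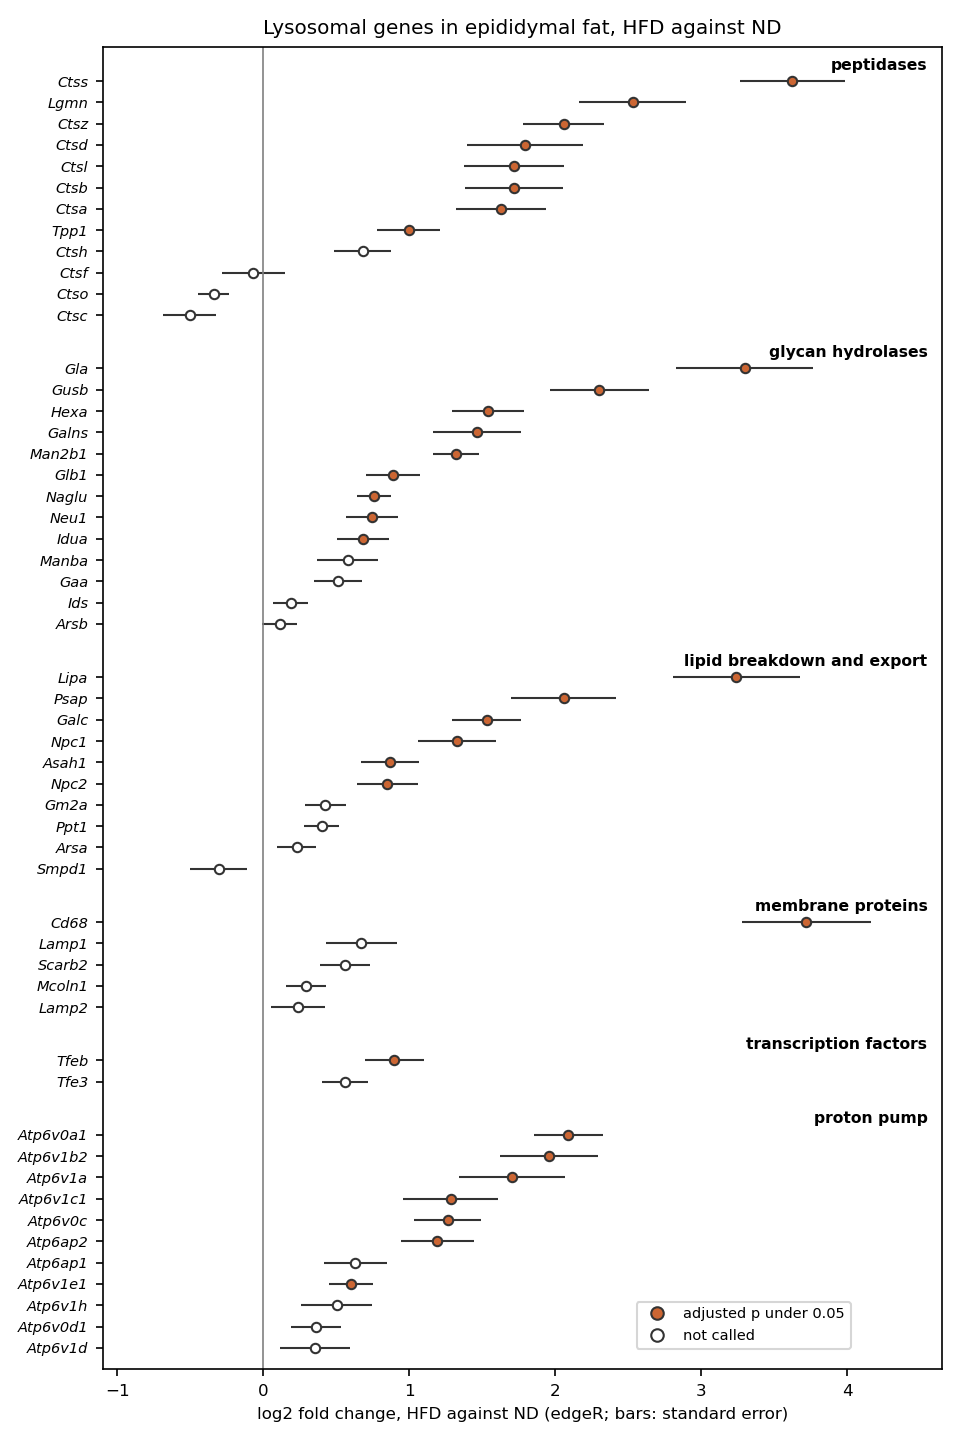
The log2 fold change of HFD against ND is plotted for each of the 53 genes by role, with bars for the standard error. Filled points have an adjusted p under 0.05 in edgeR's quasi-likelihood test. All 32 filled points lie right of 0, and 4 genes, all open, lie left of it.

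The increase was uneven between libraries. The third HFD library had the highest level among the HFD libraries in 46 of the 53 genes, and the second had the lowest in 44. The CPM of the third library was a median of 1.68 times that of the second, with a range over the 53 genes from 0.550 to 3.68. Among the ND libraries the second was highest in 40 of the 53. The count of called genes depended on the libraries kept. It was 37 without the second HFD library and 30 without the third, beside 14.5% and 8.33% of all genes called higher in those fits. It was 10 without the first HFD library (2.35% of all genes), and 7, 12 and 14 without the first, the second and the third ND library (2.08%, 2.31% and 3.78% of all genes). All 53 kept the sign of their change without the third ND library, and the largest shift was 0.20 on the log2 scale, in Manba. The genes called higher whichever library was left out were Ctss, Ctsz, Gla, Man2b1, Lipa, Cd68 and Atp6v0a1, 7 in all. Every other called gene lost its call in some of these fits. Among them Tfeb, Psap, Npc1, Atp6v1a and Atp6v1b2 were called in 2 of the 6 fits, and Idua, Npc2 and Atp6v1e1 in 1.

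**Figure D2:**
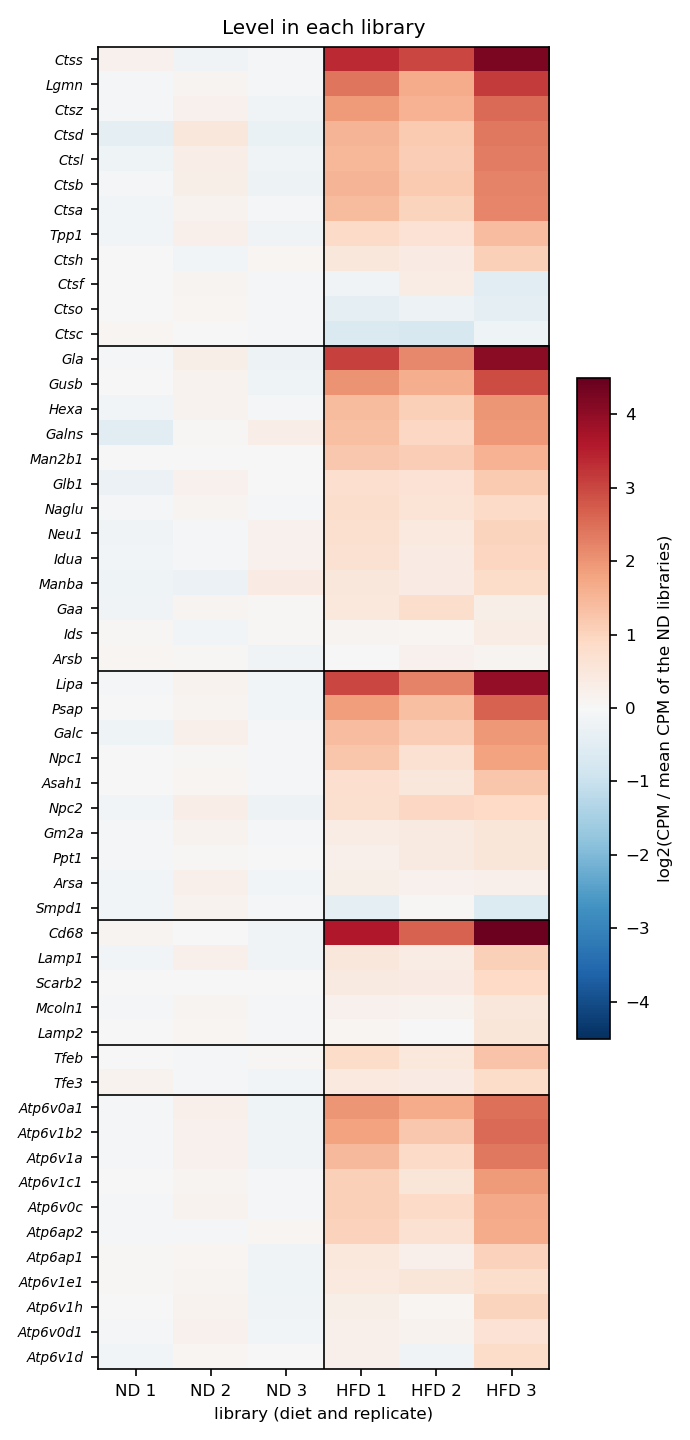
Each cell shows the log2 ratio of a gene's CPM in 1 library to its mean CPM in the 3 ND libraries, with genes grouped by role between horizontal lines. The HFD columns are darker red for Ctss, Gla, Lipa and Cd68 than for other genes, and for most genes the third HFD column is the darkest and the second the palest.

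Of the 2 transcription factors, 1 was called higher, beside 9.85% of all genes tested. Tfeb, which encodes a main activator of lysosomal genes, had 22.3, 21.1 and 22.7 CPM on ND against 39.5, 30.4 and 53.3 CPM on HFD. The HFD libraries were all above the ND libraries, with a log2 fold change of 0.90 (SE 0.20, adjusted p = 0.0281). Tfe3, its close relative, had 54.3, 46.8 and 44.6 CPM on ND against 65.9, 62.6 and 86.5 CPM on HFD. Its groups did not overlap, but the log2 fold change of 0.56 (SE 0.16, adjusted p = 0.0511) missed the threshold, which DESeq2 placed it past (adjusted p = 0.0333). A transcript level says nothing of where these factors were in the cell, which is a main point of their control.

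Because these factors bind the CLEAR element, the promoters of the set were searched for it in RefSeq sequences of GRCm38.p6 that run from 250 bases before to 50 bases after each start site. A promoter was matched for 45 of the 53 genes. The motifs searched were the full element, which is TCACGTGA with G before and C after it, then TCACGTGA itself and the core CACGTG. Each is its own reverse complement, so 1 search covers both strands, and each shorter motif lies inside the longer ones. None of the 45 genes held the full element, beside 0.370% of 27025 genes with a promoter and 0.742% of the tested ones. At such low shares its absence from 45 genes says little. TCACGTGA was found in 6 of the 45 (13.3%), beside 1.12% of all genes and 2.05% of the 11321 tested genes with a promoter. CACGTG was found in 14 of the 45 (31.1%), beside 8.09% of all genes and 11.4% of the tested genes. Of the other lysosome genes listed further below, 82 had a promoter. The full element was in 4 of these 82 (4.88%), TCACGTGA in 10 (12.2%) and CACGTG in 21 (25.6%).

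The windows below are shown because they hold the TCACGTGA matches that lie upstream of a start site, in capitals, each read 5′ to 3′ on the strand of its gene, with GRCm38.p6 coordinates.
Atp6v1a (chr16:44139373-44139402, minus strand): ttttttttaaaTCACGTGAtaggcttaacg
Ctsa (chr2:164833749-164833772, plus strand): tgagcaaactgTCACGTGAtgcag
Ctsd (chr7:142387908-142387937, minus strand): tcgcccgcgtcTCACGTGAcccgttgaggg
Gla (chrX:134601182-134601211, minus strand): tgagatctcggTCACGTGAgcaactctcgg
Gla (chrX:134601215-134601244, minus strand): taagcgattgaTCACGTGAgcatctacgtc
Mcoln1 (chr8:3500462-3500491, plus strand): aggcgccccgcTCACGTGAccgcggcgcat
The match began 132 bases before the start site in Atp6v1a, 13 in Ctsa, 99 in Ctsd and 46 in Mcoln1. In Gla there were 2 matches, at 195 and 228 bases before the start. Ctsa had a further match just after its start, and Atp6v0d1, the sixth gene, had its match across the start site.

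The promoter of Lamp1 is shown because it held no TCACGTGA but 4 copies of CACGTG, in capitals.
Lamp1 (chr8:13159080-13159160, plus strand): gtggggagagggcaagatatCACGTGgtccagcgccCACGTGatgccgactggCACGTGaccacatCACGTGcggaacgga
A match is a run of letters and not a measured binding site. Matches were present both in genes called higher and in genes not called, and no test was made of the difference. TCACGTGA was in 4 of 26 called genes (15.4%) and 2 of 19 others (10.5%), and CACGTG in 8 of 26 (30.8%) and 6 of 19 (31.6%). Among the TCACGTGA genes, Gla, Ctsd, Atp6v1a and Ctsa were called higher, with log2 fold changes of 3.30, 1.79, 1.70 and 1.63. Mcoln1 (0.29, adjusted p = 0.175) and Atp6v0d1 (0.36, adjusted p = 0.182) were not called.

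The peptidases cut proteins inside the lysosome. Of 12, 8 were called higher, beside 9.85% of all genes tested, with a median log2 fold change of 1.67. Cathepsin S, from Ctss (ENSMUSG00000038642, chr3:95526786-95556403, plus strand), trims the invariant chain of MHC class II in antigen-presenting cells. Its level was 112, 88.2 and 95.8 CPM on ND against 1010.0, 784 and 1856 CPM on HFD. The lowest HFD library was several times the highest ND library, and the means were 98.7 ± 12.2 CPM for ND against 1217 ± 565 CPM for HFD (mean ± SD, n = 3), a log2 fold change of 3.62 (SE 0.36, adjusted p = 0.00448). Legumain, from Lgmn, is an asparaginyl endopeptidase that also processes cathepsins, and had 102, 118 and 105 CPM on ND against 571, 344 and 965 CPM on HFD. The groups were apart, with a log2 fold change of 2.53 (SE 0.37, adjusted p = 0.00925). Cathepsin Z, from Ctsz (ENSMUSG00000016256, chr2:174427493-174439039, minus strand), is a carboxypeptidase and had 177, 209 and 164 CPM on ND against 684, 537 and 1068 CPM on HFD. Its HFD libraries were all above its ND libraries, with a log2 fold change of 2.06 (SE 0.28, adjusted p = 0.00789).

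Cathepsin D, from Ctsd, is an aspartic protease and had the highest mean FPKM of the peptidases on both diets, 302 on ND and 1035 on HFD. Its level was 531, 1002 and 565 CPM on ND against 2041, 1579 and 3649.7 CPM on HFD. The second ND library was well above the other ND libraries but below every HFD library. The log2 fold change was 1.79 (SE 0.40, adjusted p = 0.0271). It stayed past the threshold in 2 of the 6 fits with a library left out, as did those of Ctsa, Ctsb, Ctsl and Tpp1. The other called peptidases were the cysteine proteases Ctsl (1.72, adjusted p = 0.0200) and Ctsb (1.72, adjusted p = 0.0183), the carboxypeptidase Ctsa (1.63, adjusted p = 0.0178) and the tripeptidyl peptidase Tpp1 (0.997, adjusted p = 0.0250). Exons of Ctsa overlap the opposite strand gene Pltp, and those of Ctsz overlap Nelfcd. Ctsb, Npc1, Ppt1, Lamp1 and Idua also overlap an opposite strand gene with over 1000 counts. The use of strand in counting is not given in the sources used here, so reads of such pairs may not be separated.

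The remaining 4 peptidases were not called. Cathepsin C, from Ctsc, activates the serine proteases of granulocytes and lymphocytes. It was among 2 genes of the set with all HFD values below all ND values, and is given with Ctso because of that direction, after their values were seen. Its level was 282, 259 and 248 CPM on ND against 166, 158 and 232 CPM on HFD. Its log2 fold change of -0.51 (SE 0.18, adjusted p = 0.0948) missed the threshold, while DESeq2 called it lower (adjusted p = 0.0397). Cathepsin O, a cysteine protease from Ctso, had 87.3, 93.7 and 83.8 CPM on ND against 67.3, 74.9 and 66.8 CPM on HFD. The gap between its groups was small, with a log2 fold change of -0.34 (SE 0.11, adjusted p = 0.0719). Cathepsin H, from Ctsh, an aminopeptidase, had groups apart (0.68, adjusted p = 0.0558) and was past the threshold with DESeq2 (adjusted p = 0.0157). Cathepsin F, from Ctsf, had overlapping groups (-0.07, adjusted p = 0.849).

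The makeup of the peptidase transcripts was compared as shares of FPKM. Ctss made up 8.55, 5.05 and 7.58% of the summed FPKM of the 12 peptidases on ND against 20.9, 21.04 and 22.6% on HFD. The groups were far apart and the HFD libraries close together, and Ctss ranked 5 on ND and 2 on HFD. Ctsd kept rank 1, at 27.4% ± 5.05 on ND and 24.9% ± 0.726 on HFD (SD, n = 3), and Ctsb took 24.95% ± 0.893 and 21.3% ± 0.563. Ctsc took 4.36% ± 0.809 on ND and 0.818% ± 0.165 on HFD. No test was run on the shares, and an exact permutation test of 3 libraries against 3 cannot go below p = 0.1.

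**Figure D3:**
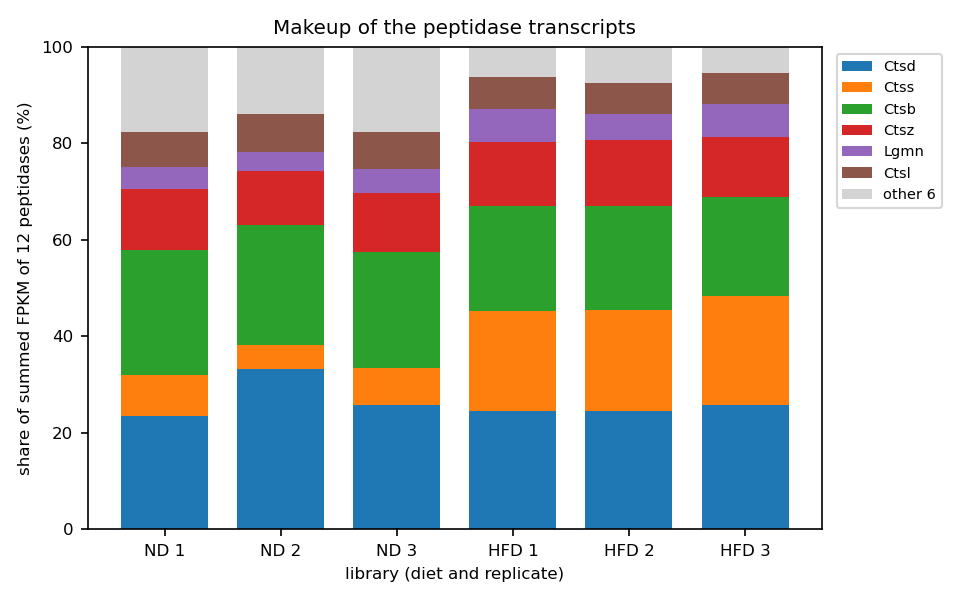
Each bar is 1 library and shows the percent of the summed FPKM of the 12 peptidases taken by the 6 with the highest FPKM on HFD and, in grey, by the other 6. The orange Ctss part is 5.05% to 8.55% in the ND bars and 20.9% to 22.6% in the HFD bars.

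Glycan hydrolases remove sugars from glycoproteins, glycolipids and glycosaminoglycans. Of 13, 9 were called higher, beside 9.85% of all genes tested, with a median log2 fold change of 0.76 and none negative. Alpha-galactosidase A, from Gla (ENSMUSG00000031266, chrX:134588149-134601125, minus strand), clears globotriaosylceramide and carries the promoter matches printed above. It had 6.86, 8.87 and 6.35 CPM on ND against 62.2, 33.1 and 122 CPM on HFD. All HFD libraries lay above the ND libraries and the third was the highest, with means of 7.36 ± 1.34 CPM for ND against 72.3 ± 45.1 CPM for HFD (mean ± SD, n = 3) and a log2 fold change of 3.30 (SE 0.47, adjusted p = 0.00918). Beta-glucuronidase, from Gusb, had 76.4, 85.3 and 65.98 CPM on ND against 311, 233 and 578 CPM on HFD. Again the groups were apart, with a log2 fold change of 2.30 (SE 0.34, adjusted p = 0.00965). Gusb is also used as a reference gene in quantitative PCR.

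Hexa encodes the alpha subunit of beta-hexosaminidase, which degrades GM2 ganglioside, and had the highest mean FPKM of the group, 80.02 on ND and 230.2 on HFD. Its level was 143, 177 and 152 CPM on ND against 422, 329.6 and 621 CPM on HFD. The groups were apart, with a log2 fold change of 1.54 (SE 0.25, adjusted p = 0.0116). Galns, a sulfatase of keratan sulfate, had 10.04, 14.4 and 17.1 CPM on ND against 35.2, 26.1 and 53.4 CPM on HFD. It was low on ND and apart between diets, with a log2 fold change of 1.46 (SE 0.30, adjusted p = 0.0223). Lysosomal alpha-mannosidase, from Man2b1 (ENSMUSG00000005142, chr8:85083270-85098282, plus strand), was singled out after its values were seen, for being called whichever library was left out. It had 136, 140.4 and 136 CPM on ND against 321, 299 and 407 CPM on HFD. The ND libraries were nearly equal and the HFD libraries more than 2 times as high, with a log2 fold change of 1.32 (SE 0.16, adjusted p = 0.00631).

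Smaller increases were called for Glb1, a beta-galactosidase (0.89, adjusted p = 0.0218), Naglu, an enzyme of heparan sulfate breakdown (0.76, adjusted p = 0.0103), the sialidase Neu1 (0.74, adjusted p = 0.0325) and Idua, which removes iduronic acid (0.68, adjusted p = 0.0413). Glb1 shares exon sequence with Tmppe on the same strand, and Idua overlaps genes of the opposite strand. The mannosidase Manba (0.58, adjusted p = 0.101), the glucosidase Gaa (0.51, adjusted p = 0.0728), and the sulfatases Ids (0.19, adjusted p = 0.318) and Arsb (0.11, adjusted p = 0.552) were not called, and Manba and Arsb had overlapping groups. Gaa departed from the usual order, being highest in the second HFD library and lowest in the third.

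Among the genes of lipid breakdown and export, 6 of 10 were called higher, beside 9.85% of all genes tested. Their median log2 fold change was 0.86. Lipa (ENSMUSG00000024781, chr19:34492318-34527474, minus strand) encodes lysosomal acid lipase, which frees fatty acids and cholesterol from triglycerides and cholesteryl esters. Its level was 77.4, 87.9 and 73.4 CPM on ND against 636, 374 and 1244 CPM on HFD. The ND libraries were close together and the HFD libraries spread more than 3-fold, all above them, with means of 79.6 ± 7.52 CPM for ND against 751 ± 446 CPM for HFD (mean ± SD, n = 3) and a log2 fold change of 3.24 (SE 0.44, adjusted p = 0.00791). Psap encodes prosaposin, the precursor of the saposins that present sphingolipids to their hydrolases. It had the highest FPKM of all 53 genes on both diets, 572 on ND and 2357 on HFD. Its level was 1536, 1686 and 1419 CPM on ND against 5697, 3956 and 9681 CPM on HFD. The groups were apart, with a log2 fold change of 2.06 (SE 0.36, adjusted p = 0.0133).

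Galc, which degrades galactosylceramide, had 21.3, 28.7 and 23.7 CPM on ND against 64.04, 53.2 and 95.4 CPM on HFD. Every HFD library was above the ND libraries, with a log2 fold change of 1.53 (SE 0.24, adjusted p = 0.0104). Npc1, the membrane partner in the cholesterol export pathway, had 42.4, 43.6 and 39.4 CPM on ND against 99.4, 67.2 and 148 CPM on HFD. Its groups were apart, the second HFD library being the nearest to ND, with a log2 fold change of 1.32 (SE 0.27, adjusted p = 0.0207). Npc2, the soluble partner that hands cholesterol to NPC1, was called as well (0.85, adjusted p = 0.0351), as was the acid ceramidase Asah1 (0.87, adjusted p = 0.0289). The GM2 activator Gm2a (0.43, adjusted p = 0.0813), the thioesterase Ppt1 (0.40, adjusted p = 0.0611), the sulfatase Arsa (0.23, adjusted p = 0.265) and the acid sphingomyelinase Smpd1 (-0.31, adjusted p = 0.306) were not called. Gm2a and Ppt1 had all HFD values above ND, while Arsa and Smpd1 overlapped. DESeq2 called Gm2a higher (adjusted p = 0.0465).

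By summed FPKM within these 10 genes, Lipa ranked 6 on ND and 2 on HFD, with 3.06, 3.03 and 3.09% on ND against 7.92, 6.24 and 9.44% on HFD. Psap took 64.4% ± 1.44 on ND and 75.9% ± 4.13 on HFD (SD, n = 3). Both groups of shares were apart for both genes.

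Of the 5 membrane proteins 1 was called higher, beside 9.85% of all genes tested. Cd68 (ENSMUSG00000018774, chr11:69664213-69666153, minus strand) encodes macrosialin, a glycoprotein of macrophage lysosomes that is widely used as a macrophage marker. It had 34.6, 31.8 and 27.9 CPM on ND against 381, 196 and 666 CPM on HFD. The lowest HFD library was several times every ND library, with means of 31.4 ± 3.34 CPM for ND against 414 ± 237 CPM for HFD (mean ± SD, n = 3), and the log2 fold change of 3.72 (SE 0.44, adjusted p = 0.00642) was the largest of the 53. Lamp1, a main structural glycoprotein of the lysosomal membrane and the gene with the most FPKM in this group, had 615, 778 and 603 CPM on ND against 948, 832 and 1397 CPM on HFD. The groups were apart by a narrow margin, and the log2 fold change of 0.67 (SE 0.24, adjusted p = 0.101) missed the threshold, which DESeq2 placed it past (adjusted p = 0.0361).

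Scarb2, the receptor that carries glucocerebrosidase to the lysosome (0.56, adjusted p = 0.0644), the cation channel Mcoln1 (0.29, adjusted p = 0.175) and Lamp2 (0.24, adjusted p = 0.413) were not called, and Lamp2 overlapped. DESeq2 called Scarb2 higher (adjusted p = 0.0256). Cd68 made up 8.4, 6.5 and 7.0% of the summed FPKM of the 5 genes on ND against 40.9, 28.5 and 45.4% on HFD. The share of Lamp1 was 71.7% ± 2.21 on ND and 49.8% ± 6.30 on HFD (SD, n = 3).

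The proton pump has a membrane sector, V0, that carries the protons and a cytosolic sector, V1, that hydrolyses ATP. Of its 11 genes 7 were called higher, beside 9.85% of all genes tested, with a median log2 fold change of 1.19 and none negative. The a1 subunit of V0, from Atp6v0a1 (ENSMUSG00000019302, chr11:101009452-101063719, plus strand), forms part of the proton path. It had 87.2, 107 and 80.9 CPM on ND against 364, 293 and 511 CPM on HFD. The groups were far apart, with means of 91.6 ± 13.4 CPM for ND against 389 ± 111 CPM for HFD (mean ± SD, n = 3) and a log2 fold change of 2.09 (SE 0.24, adjusted p = 0.00619). Atp6v1b2 and Atp6v1a encode the B and A subunits that form the ATP-hydrolysing head of V1. Atp6v1b2 had 127, 153 and 118 CPM on ND against 461, 309 and 778 CPM on HFD, a log2 fold change of 1.96 (SE 0.34, adjusted p = 0.0132). Atp6v1a had 117, 141 and 110.3 CPM on ND against 339, 225 and 632 CPM on HFD, a log2 fold change of 1.70 (SE 0.36, adjusted p = 0.0244). Both subunits of the head were thus apart between diets, with the same order of HFD libraries.

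Atp6v1c1, the C subunit that helps hold the sectors together, had 56.2, 62.9 and 53.5 CPM on ND against 121, 83.4 and 215 CPM on HFD. The groups were apart, with a log2 fold change of 1.28 (SE 0.32, adjusted p = 0.0389). Increases were also called for Atp6v0c of the proton-carrying ring (1.26, adjusted p = 0.0161), the accessory protein Atp6ap2 (1.19, adjusted p = 0.0230) and Atp6v1e1 of the stalk (0.60, adjusted p = 0.0374). The accessory protein Atp6ap1 (0.63, adjusted p = 0.0886) had groups apart but was not called, and Atp6v1h (0.50, adjusted p = 0.194) and Atp6v1d (0.36, adjusted p = 0.334) overlapped. DESeq2 called Atp6ap1 higher (adjusted p = 0.0496). Atp6v0d1, the V0 subunit that couples the ring to the rotor, had the highest FPKM of the 11 on ND, 69.4, and 88.3 on HFD, where Atp6v1b2 had 97.6. Its level was 116, 140.0 and 112 CPM on ND against 144, 137 and 192 CPM on HFD. The second HFD library lay below the second ND library, and the log2 fold change of 0.36 (SE 0.17, adjusted p = 0.182) was not called.

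Several pump subunits have paralogues outside the 53 genes, and these differed in their change. Atp6v0d2, the second d subunit, known from osteoclasts and macrophages, had 1.73, 1.74 and 1.75 CPM on ND against 269.5, 128 and 573 CPM on HFD. It was low in every ND library and high in every HFD library, with a log2 fold change of 7.53 (SE 0.65, adjusted p = 0.00338). Its share of the FPKM of the d subunits was 0.971, 0.814 and 1.02% on ND against 55.2, 38.2 and 66.4% on HFD, the rest being Atp6v0d1. The d subunit transcripts were nearly all d1 on ND and a mixture on HFD.

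For the a subunit, Tcirg1, which encodes a3, had 43.3, 33.00 and 38.9 CPM on ND against 203, 115 and 351 CPM on HFD. Its groups were apart, with a log2 fold change of 2.54 (SE 0.39, adjusted p = 0.0103). Atp6v0a2, the gene of a2, was not called (0.13, adjusted p = 0.436). By share of the summed FPKM of the a subunits, a1 had 39.9, 46.9 and 37.9% on ND against 49.5, 54.7 and 46.1% on HFD. The share of a3 was 29.1, 21.3 and 26.7% and 40.5, 31.6 and 46.4%, and that of a2 was 30.2, 30.7 and 30.2% and 9.48, 13.1 and 7.19%. The shares of a3 and a2 did not overlap between diets, while those of a1 did. Atp6v1b1 and Atp6v1g3, the kidney forms of the B and G subunits, had 0 counts in all 6 libraries.

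**Figure D4:**
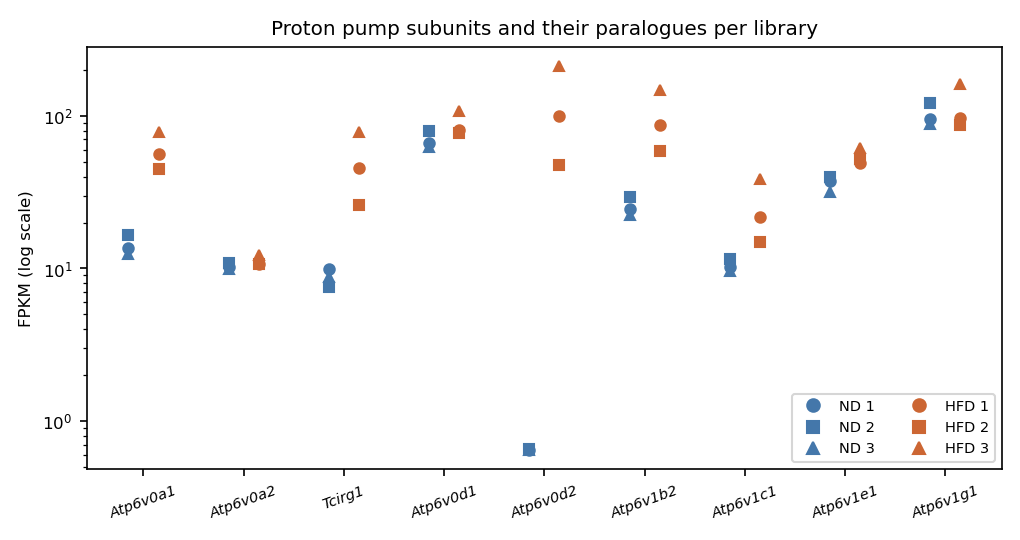
The FPKM of pump subunits and their paralogues is plotted for each library on a log scale, with ND in blue, HFD in orange and a symbol for each replicate. Atp6v0d2 lies at 0.647 to 0.654 FPKM on ND and 47.5 to 211 FPKM on HFD, while Atp6v0d1 overlaps between diets.

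Of 110 other genes of the lysosome that were listed, 104 were tested, of which 36 were called higher and 2 lower (9.85% and 6.04% of all genes tested), with a median log2 fold change of 0.42. By role, 12 of 27 hydrolases, 13 of 21 membrane proteins, 2 of 11 pump subunits, 8 of 32 genes of delivery and control and 1 of 13 autophagy genes were called higher. The largest increases after Atp6v0d2 were in the peptide transporter Slc15a3 (3.998, adjusted p = 0.00344), the collagenolytic cathepsin Ctsk (3.30, adjusted p = 0.0103), the metal transporter Slc11a1 (3.10, adjusted p = 0.00789) and the channel Mcoln2 (2.89, adjusted p = 0.0156). Tcirg1, the folliculin-interacting gene Fnip2 (2.37, adjusted p = 0.0187) and the channel Tpcn2 (2.32, adjusted p = 0.00724) followed. Slc15a3 had 6.15, 4.99 and 5.35 CPM on ND against 79.6, 52.1 and 132 CPM on HFD. Ctsk had 31.4, 32.7 and 32.3 CPM on ND against 262, 129 and 561 CPM on HFD. Both were apart between diets, in the library order seen for Ctss and Cd68, although exons of Slc15a3 overlap Tmem132a on the opposite strand. Slc11a1 had 21.3, 20.5 and 21.5 CPM on ND against 151, 92.4 and 299.7 CPM on HFD. Tpcn2 had 14.04, 14.6 and 14.4 CPM on ND against 68.5, 43.8 and 103 CPM on HFD. Fnip2 had 19.9, 16.5 and 17.7 CPM on ND against 68.7, 45.2 and 167 CPM on HFD. Each again had the third HFD library highest and the second lowest, as did Mcoln2 at 1.30, 1.97 and 1.35 CPM on ND against 9.62, 4.94 and 19.8 CPM on HFD.

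The called decreases were Acp5 and Sidt2. Acp5, tartrate-resistant acid phosphatase, had 333, 544 and 400.4 CPM on ND against 218, 279.6 and 178 CPM on HFD. The groups were apart, with a log2 fold change of -0.92 (SE 0.24, adjusted p = 0.0448). Sidt2, a membrane protein linked to nucleic acid transport into lysosomes, had 166, 157 and 142 CPM on ND against 109.9, 116 and 96.8 CPM on HFD. Its groups were apart as well, with a log2 fold change of -0.53 (SE 0.13, adjusted p = 0.0337). Each was called in 1 of the 6 fits with a library left out.

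Markers of macrophages were higher on HFD in part of their lists. A change in the number of cells of a type and a change in RNA per cell cannot be told apart in bulk RNA. Of 14 macrophage markers 9 were called higher, beside 9.85% of all genes tested. Their summed level was 2114, 2034 and 2025 CPM on ND against 5165, 4116 and 8633 CPM on HFD. Of 7 markers of lipid-associated macrophages 6 were called higher, beside the same 9.85%, with sums of 369, 459 and 314 CPM and 4702, 2586 and 10132 CPM. None of these markers was at 0 in any library, and their part in the result was not tested. Gpnmb (8.11, adjusted p = 0.00344) and Trem2 (5.31, adjusted p = 0.00344) were called whichever library was left out. Spp1 (5.84, adjusted p = 0.0391) was called in 1 of those 6 fits, and its log2 fold change was 3.68 without the third HFD library and 8.41 without the third ND library. The macrophage markers Mrc1 (0.87, adjusted p = 0.0534), Cd14 (0.61, adjusted p = 0.178), Mertk (-0.02, adjusted p = 0.928), Cx3cr1 (-0.31, adjusted p = 0.587) and Cd163 (-0.05, adjusted p = 0.878) were not called. Fabp5 of the lipid-associated list was not called either (1.03, adjusted p = 0.0864). DESeq2 called Mrc1 (adjusted p = 0.00775) and Fabp5 (adjusted p = 0.0207) higher.

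The 53 lysosomal genes summed to 9639, 11705 and 9244 CPM on ND against 25902, 20419 and 41577 CPM on HFD, or 0.984, 1.08 and 0.981% and 2.69, 1.99 and 4.06% of all counts. The ratio of the HFD mean to the ND mean was 2.87 for the lysosomal genes, 2.90 for the macrophage markers and 15.3 for the markers of lipid-associated macrophages. The marker sums rest largely on a few genes. Lyz2 had means of 903 CPM on ND and 3105 CPM on HFD, within macrophage sums of 2058 and 5971 CPM. Fabp5 had 228 of the 380 CPM of the lipid-associated sum on ND. On HFD Gpnmb and Lgals3 had 2268 and 2215 of its 5807 CPM. Log2 fold changes of single macrophage markers ranged from -0.31 to 2.91. Divided by the macrophage sum of the same library, the lysosomal sum was 4.56, 5.75 and 4.57 on ND and 5.01, 4.96 and 4.82 on HFD. These values overlapped between diets, as did those of the peptidase sum over the macrophage sum, 1.74, 2.37 and 1.73 on ND and 2.22, 2.16 and 2.22 on HFD. For the proton pump the same ratio was 0.509, 0.599 and 0.497 on ND and 0.438, 0.435 and 0.413 on HFD, lower in every HFD library. No test was run on these ratios. Divided by the sum of lipid-associated macrophage markers, the sum over the 53 genes was 26.1, 25.5 and 29.5 on ND and 5.51, 7.90 and 4.10 on HFD, which did not overlap.

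Of 11 adipocyte markers, 3 were called lower (Slc2a4, Cfd and Retn), beside 6.04% of all genes tested. At an unadjusted p under 0.05, 5 were lower, beside 15.3%, and DESeq2 called 5 lower, beside 8.42%. The HFD values lay wholly below the ND values in 4, beside 19.1%, and the groups of the other 7 overlapped. Acsl1 had a positive log2 fold change (0.14, adjusted p = 0.692). The sums of the 11 were 40859, 46690.4 and 35721 CPM on ND against 20772, 32073 and 12663 CPM on HFD. Their order over the HFD libraries was the reverse of that of the lysosomal genes, with the second library highest and the third lowest for all 11. Macrophage markers were highest in the third HFD library and lowest in the second for 13 of 14. Their part in the result was not tested. No marker of lymphocytes (9), mast cells (5), endothelium (6), adipocyte progenitors (5) or mesothelium (5) was called by edgeR. At an unadjusted p under 0.05, 3 of 5 mast cell markers were higher, beside 18.7% of all genes tested. At that p 1 of 6 endothelial markers was lower, beside 15.3%. DESeq2 called the same numbers, beside 10.7% higher and 8.42% lower. The median log2 fold change was 1.61 for the mast cell markers and -0.29 for the endothelial markers. Of 7 neutrophil markers, 4 were tested, with 1 called higher and 1 lower, beside 9.85% and 6.04% of all genes tested. S100a8 was higher (1.45, adjusted p = 0.0219) and Camp, which was at 0 in 2 HFD libraries, was lower (adjusted p = 0.0186). S100a9 (-0.81, adjusted p = 0.412) and Elane (-0.97, adjusted p = 0.387) were not called. The 7 summed to at most 7.29 CPM on ND and 10.1 CPM on HFD, with Ly6g at 0 in 5 libraries.

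**Figure D5:**
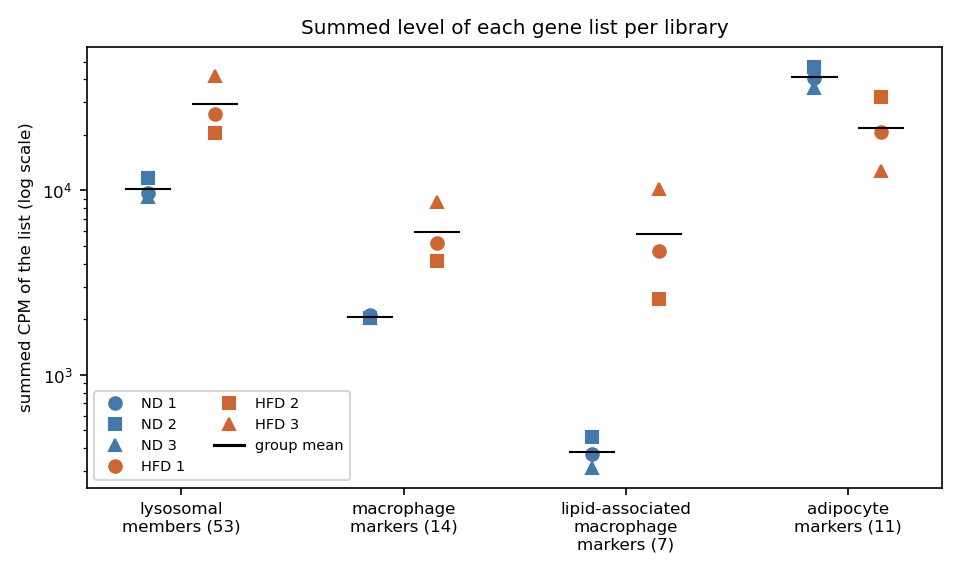
The summed CPM of each gene list is plotted on a log scale for every library, with ND in blue, HFD in orange, a symbol for each replicate and a line at the group mean. The HFD libraries lie above the ND libraries for the lysosomal genes and both macrophage lists and below them for adipocyte markers, and the orange symbols are in opposite order in the adipocyte list.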

How the data were processed

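Gene-level RNA-Seq of epididymal fat was analysed for 3 ND and 3 HFD libraries, grouped by the diet in the sample labels. The paper's methods name TopHat and Cufflinks with the mouse build GRCm38. The submitters' processing notes list fastp, HISAT2 2.0.5, featureCounts 1.5.0-p3 and DESeq2 1.20.0 and the human build GRCh38, although the identifiers are mouse, so the aligner is uncertain. The authors deposited raw counts per gene and, for the same genes, FPKM values. In each gene the FPKM were proportional to the counts once each library's own scale was removed, as checked on the 11492 genes above 50 counts in every library. The strand setting of the counting is not given in the sources used here. Exons of 16 of the 53 genes overlap another gene, which in 7 cases has over 1000 counts in the 6 libraries together.

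Symbols came from GENCODE M21, which held 54495 of the 54532 identifiers. The main test was edgeR 4.0.16 (R 4.3.3): filterByExpr, TMM, glmQLFit with robust=TRUE, diet as the only term, Benjamini-Hochberg adjustment and a threshold of 0.05. Standard errors were derived from the F statistic. The methods were tested on simulated data in which genes varied independently, so shifts shared by many genes of a library were not covered. The test was repeated with DESeq2 1.42.0 and with limma-voom (limma 3.58.1). In edgeR, DESeq2's size factors or the plain library size replaced TMM, the filter was dropped or set to 10 counts in 3 libraries, robust was set to FALSE, a replicate block was added, and libraries were left out 1 at a time. FPKM were tested by limma on log2(FPKM + 1) for genes reaching 0.5 FPKM in 3 libraries, with a pseudocount of 0.1, or unfiltered. Genes given in every library were, in each role, up to 4 called genes with the largest change and the gene with the highest mean FPKM, both transcription factors, and from the other lysosome genes up to 8 called increases and 4 called decreases. Ctsc, Ctso and Man2b1 were added after their values were seen. The members and lists were chosen with earlier results of these data known. The standard errors include the spread between libraries, while the floors cover counting error only.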

Additional observations from a re-analysis of the deposited data

How the results depend on the processing

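The count of lysosomal genes called higher, 32, was 38 with DESeq2, 11 with log2(FPKM + 1) without a filter, and 27 to 32 under the 9 other alternatives that kept all libraries. Leaving out 1 library gave 7 to 37. None was called lower, except 1 with DESeq2 and 0 to 1 with a library left out. For the other lysosome genes, 36 were called higher, with 12 for log2(FPKM + 1) without a filter and 7 to 49 with a library left out. The 2 called lower became 1 without the count filter, 1 with log2(FPKM + 1), 0 with that scale unfiltered, and 0 to 5 with a library left out. Over 63 genes and 11 alternatives that kept all libraries, 643 of 693 results kept direction and call, 41 lost the call, 9 gained it and none changed sign. With a library left out, 258 of 378 kept both, 110 lost the call, 9 gained it and Ctsf changed sign (-0.33 to 0.10). Fewer samples entered these fits, and the cause was otherwise not tested. The scalings left the median of all genes within 0.1 of 0 on the log2 scale.

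In the fit with a replicate block, 27 genes were called higher, 26 of them shared with the 32. Samples of the same number did not deviate together (correlations of -0.0858, -0.0556 and -0.00532). The labels do not say whether the numbers pair the libraries, and these correlations from so few libraries cannot exclude it. Depth was not limiting for the 53 genes, the lowest of which had 6.35 CPM, while paralogues at 0 counts could lie under the floor of 3 counts.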

Other observations

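The genes that deliver proteins to the lysosome or control its formation were listed beside the enzymes. Of 32, 8 were called higher by edgeR's quasi-likelihood test and none lower (9.85% and 6.04% of all genes tested). At an unadjusted p under 0.05, 18 were higher and 1 lower (18.7% and 15.3% of all genes), and DESeq2 called 11 higher (10.7% of all genes). The median log2 fold change was 0.40, beside 0.01 over all genes tested. Igf2r, the large mannose 6-phosphate receptor, had 97.1, 114 and 96.6 CPM on ND against 239.7, 174 and 381 CPM on HFD, and the groups were apart (1.37, adjusted p = 0.0220). Grn encodes progranulin, a lysosomal glycoprotein precursor, and had 239.8, 269 and 241 CPM on ND against 705, 475 and 1018 CPM on HFD, with the groups apart (1.55, adjusted p = 0.0149). Cstb, a cytosolic inhibitor of cysteine cathepsins, had 73.04, 81.3 and 73.1 CPM on ND against 233, 164 and 439.8 CPM on HFD, again without overlap (1.88, adjusted p = 0.0159). Mitf, the relative of TFEB and TFE3, had 14.9, 13.9 and 17.5 CPM on ND against 46.2, 29.5 and 62.3 CPM on HFD, with every HFD library above the ND libraries (1.57, adjusted p = 0.0130). These 4 genes were picked for description after their values were seen.

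Of 13 autophagy genes, 1 was called higher and none lower, beside 9.85% and 6.04% of all genes tested. That gene was Uvrag, with a log2 fold change of 0.52 (SE 0.13, adjusted p = 0.0351) and levels of 42.8, 47.1 and 38.9 CPM on ND against 59.4, 56.4 and 68.4 CPM on HFD. At an unadjusted p under 0.05, 5 were higher and 1 lower, beside 18.7% and 15.3% of all genes. DESeq2 called 3 higher, beside 10.7%, and the median log2 fold change was 0.26. Mcoln3, a channel of the same family as Mcoln1, had too few counts to be tested and was among the genes particular to the third ND library, at 11.05 CPM there.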
